A study of Mus musculus with 2 samples.

Results

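The insulin-like growth factor (IGF) genes Igf1, Igf2, Igf1r, Igf2r, Igfbp2, Igfbp3, Igfbp4, Igfbp5, Igfbp6 and Igfbp7 were followed through single-cell RNA profiles of embryonic mouse skin. These 10 genes were chosen by symbol among the 32286 features of each count matrix, and all 10 were found. Live cells of the dorsolateral flank skin came from littermate embryos at stage E13.5, and 2 to 3 embryos were pooled for each of the 2 libraries. The mutant library is titled dermal SmoM2YFP mutant and the control library bears SmoM2YFP alone in its title. Per the design text, mice with Axin2CreER, a tamoxifen-inducible Cre recombinase at a Wnt target gene, were bred to mice with a Rosa-lox-STOP-lox-SmoM2YFP allele, whose recombination yields a constantly active Smoothened that switches Hedgehog signalling on. Recombination is therefore set by where Axin2 is active when tamoxifen is given, not by a dermis-specific promoter. The genotype fields of the 2 libraries contradict their titles, and groups here follow the titles. Dermal transcripts went with the titles: Ptch1, a direct Hedgehog target, stood at 5.50 CPM (counts scaled to a total of 1000000) in the library titled control and 246 CPM in the library titled mutant, and the reporter feature eYFP at 0.413 and 28.9 CPM. In epidermal and in muscle cells, 0 of the 4 features Ptch1, Gli1, Hhip and eYFP reached 10 CPM in either library. Recombination in these cells was not tested.

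IGF1 and IGF2 are secreted growth factors that drive fetal growth through the receptor tyrosine kinase IGF1R. IGF2R carries no kinase and takes IGF2 up for breakdown in lysosomes. The binding proteins IGFBP2 to IGFBP6 hold the ligands with high affinity outside the cell and so set how much reaches the receptor, and proteases release the ligands from them. IGFBP7 is a more distant relative that binds IGFs weakly and is known from vessel walls. In developing skin, mesenchymal cells are a main source of ligand, while epithelial cells carry the receptor.

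The control library had 109629368 unique molecular identifiers (UMIs, each standing for 1 captured transcript) over 13566 barcodes and the mutant library 73809828 over 11909. After filters and doublet removal 11527 control and 8514 mutant cells remained, and 48 barcodes were listed in both libraries. Cells were clustered without the IGF genes and clusters were named from marker lists as dermal-like, epidermal-like, muscle-like and 7 further classes, written without the suffix from here on. Dermal cells numbered 8712 in the control and 5134 in the mutant library, epidermal cells 554 and 1390, and muscle cells 988 and 701. With 1 library per group no test between groups was possible. Intervals are exact 95% intervals that cover counting error only, and UMIs of 1 cell are not independent, so the spread between embryos is unknown. A gene is called higher or lower where its CPM ratio, mutant over control, was at least 1.5 in either direction with at least 10 CPM in either library. Hemoglobin transcripts were higher in the mutant library in all 3 classes (medians of log2 ratio 2.54 in dermal, 2.86 in epidermal and 1.90 in muscle cells, 5 of 5 measured genes each), and immediate-early genes of tissue handling had medians of 0.74 in dermal (4 of 7 measured higher, 0 lower), 0.64 in muscle (4 of 6 higher, 1 lower) and -0.08 in epidermal cells (1 of 4 higher, 1 lower). Their part in the results was not tested.

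In dermal cells 2 members were higher in the mutant library (Igf1 and Igfbp7), 2 were lower (Igfbp2 and Igfbp5) and 6 lay within 1.5-fold, where 9.27% of the 8151 measured genes were past 1.5-fold (4.44% higher, 4.83% lower). In epidermal cells 3 members were higher (Igf2, Igf2r and Igfbp5) and 1 was lower (Igfbp2) of 6 that reached 10 CPM, beside 6.69% of 7306 genes (4.04% higher, 2.66% lower), and Igf1, Igfbp3, Igfbp6 and Igfbp7 stayed under that minimum. In muscle cells Igf1 alone was past 1.5-fold, and lower, of 8 members at the minimum, beside 3.44% of 7179 genes (2.34% higher, 1.10% lower). The median log2 ratio of the measured members was 0.28 in dermal, 0.42 in epidermal and 0.12 in muscle cells, against 0.01, 0.06 and 0.00 over all measured genes. The members took opposite directions in neighbouring tissues: Igfbp5 was lower in dermal and higher in epidermal cells, and Igf1 was higher in dermal and lower in muscle cells.

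**Figure D1:**
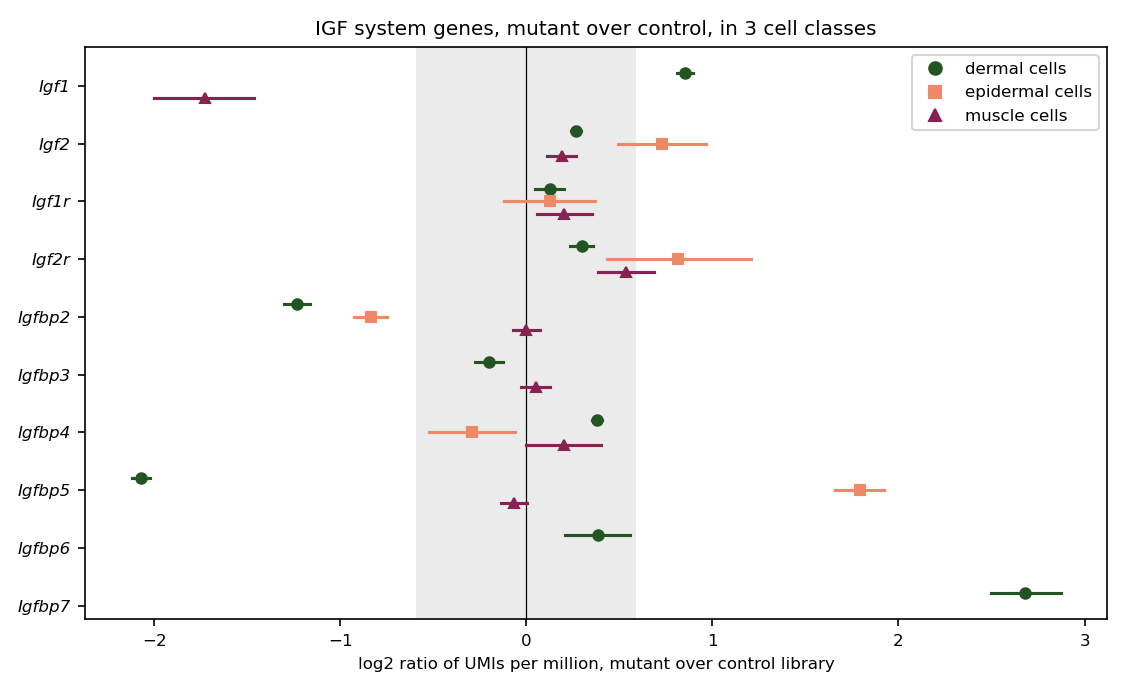
Log2 ratio of CPM, mutant over control library, for each member that reached 10 CPM in dermal, epidermal or muscle cells, with exact 95% counting intervals and a grey band for ratios under 1.5-fold. Igfbp5 lies at a ratio of 0.238 in dermal and 3.46 in epidermal cells, and Igf1 at 1.81 in dermal and 0.302 in muscle cells.

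Of the ligands, Igf1 (chr10:87858265-87937042, plus strand, GRCm38) stood at 153 CPM in control and 277 CPM in mutant dermal cells, a ratio of 1.81 (1.76 to 1.86). In muscle cells it stood at 68.1 and 20.5 CPM, a ratio of 0.302 (0.250 to 0.362) from 1000 and 132 UMIs, or 3.31-fold lower. The mutant muscle level was 7.41% of the mutant dermal level, below the 9.57% of collagen transcripts. It may hold background from dermal RNA, which was not tested. In epidermal cells Igf1 was under the 10 CPM minimum in both libraries, at 6.91 and 7.35 CPM from 40 and 82 UMIs. The log2 ratio in dermal cells exceeded that in muscle cells by 2.58 (2.32 to 2.85). The antisense gene Igf1os overlaps Igf1 on the other strand and had at most 3 UMIs in any of these 3 classes and libraries.

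Igf2 (chr7:142650766-142666816, minus strand), the main fetal ligand, was the more abundant ligand in dermal cells, at 490 CPM in the control and 590 CPM in the mutant library, a ratio of 1.2 (1.18 to 1.23). Muscle cells held 276 and 315 CPM, a ratio of 1.14 (1.08 to 1.2). Both ratios lay within 1.5-fold. Epidermal cells held less, at 34 and 56.4 CPM, and there the ratio was 1.66 (1.41 to 1.95). H19, the noncoding RNA expressed from the same imprinted locus, had ratios of 1.04 (1.03 to 1.06) in dermal, 1.59 (1.5 to 1.70) in epidermal and 1.10 (1.06 to 1.14) in muscle cells, so both transcripts were past 1.5-fold in epidermal cells and neither was in dermal or muscle cells. Both were lower in mast and other blood cells, Igf2 at 0.548 (0.273 to 1.07) and H19 at 0.632 (0.469 to 0.849).

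Igf1r (chr7:67952827-68233668, plus strand), the signalling receptor, lay within 1.5-fold between libraries in all 3 classes. It stood at 57.3 and 62.5 CPM in dermal, 35.6 and 38.8 CPM in epidermal and 77.2 and 89.0 CPM in muscle cells, in the order control and mutant. Its ratios of 1.09, 1.09 and 1.15 did not differ between classes beyond counting error: the largest difference in log2 ratio, between epidermal and muscle cells, was -0.08 (-0.36 to 0.20). Igf2r (chr17:12682406-12769664, minus strand), the clearance receptor, was higher than 1.5-fold in epidermal cells, at 12.8 and 22.5 CPM with a ratio of 1.76 (1.35 to 2.31). Its ratios were 1.23 (1.18 to 1.28) in dermal and 1.45 (1.31 to 1.61) in muscle cells. The antisense transcript Airn overlaps Igf2r, and strand use in the counting is not given in the sources used here. Airn was at 33.7 and 30.9 CPM in dermal, 8.12 and 9.68 CPM in epidermal and 12.9 and 18.8 CPM in muscle cells. Its ratios were 0.917 (0.850 to 0.990) in dermal and 1.46 (1.15 to 1.84) in muscle cells. In epidermal cells, where Airn was under the minimum, the ratio was 1.19 (0.839 to 1.72). The part of Airn in the Igf2r counts was not tested.

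The widest opposite pair was Igfbp5, a matrix-bound binder. In dermal cells it stood at 486 CPM in the control and 116 CPM in the mutant library, a ratio of 0.238 (0.230 to 0.246), or 4.2-fold lower. In epidermal cells the order was turned round, with 94.6 CPM in the control and 328 CPM in the mutant library, a ratio of 3.46 (3.16 to 3.79). In muscle cells it was 409 and 391 CPM, a ratio of 0.955 (0.912 to 1.0). The difference in log2 ratio, dermal minus epidermal, was -3.86 (-4.00 to -3.72). Igfbp2, which carries the ligands in fetal fluids and tissue, was lower in both skin layers: 144 and 61.1 CPM in dermal cells, a ratio of 0.426 (0.405 to 0.447), and 340 and 191 CPM in epidermal cells, a ratio of 0.560 (0.527 to 0.596). In muscle cells Igfbp2 was at 339 CPM in both libraries, with a ratio of 1.0 (0.95 to 1.05).

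Igfbp2 (chr1:72824503-72852474, plus strand) and Igfbp5 (chr1:72857932-72874884, minus strand) are neighbours on chromosome 1 that point at each other, with 5457 bases between their ends, and the third changed binder, Igfbp7 (chr5:77349240-77408041, minus strand), lies on chromosome 5. The bases just before their RefSeq start sites are printed since these are the 3 binders past 1.5-fold in dermal cells. All 10 members matched the RefSeq promoter table of GRCm38.p6, with 14 start sites. Igfbp2 has 2 of these, and only the run of the first is printed. The Igfbp5 run stops 19 bases short of its start site, since those bases lie in an annotated exon. Capitals mark the letters CCACCC or their complement GGGTGG, the core of the site that GLI proteins, the transcription factors of the Hedgehog pathway, bind. The runs are 5′ to 3′ on each gene's strand, Igfbp2 at chr1:72824230-72824479, Igfbp5 at chr1:72874885-72875115 and Igfbp7 at chr5:77408046-77408295.
Igfbp2: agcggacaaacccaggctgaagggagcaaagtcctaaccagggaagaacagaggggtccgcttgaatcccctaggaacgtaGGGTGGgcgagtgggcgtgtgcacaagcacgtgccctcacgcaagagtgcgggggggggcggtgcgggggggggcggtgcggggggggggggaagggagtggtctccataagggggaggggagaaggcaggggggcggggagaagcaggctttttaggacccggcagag
Igfbp5: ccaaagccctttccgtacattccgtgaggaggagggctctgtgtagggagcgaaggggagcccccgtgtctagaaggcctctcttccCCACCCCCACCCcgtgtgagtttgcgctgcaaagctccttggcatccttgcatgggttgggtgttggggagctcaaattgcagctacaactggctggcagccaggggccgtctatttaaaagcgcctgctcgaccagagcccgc
Igfbp7: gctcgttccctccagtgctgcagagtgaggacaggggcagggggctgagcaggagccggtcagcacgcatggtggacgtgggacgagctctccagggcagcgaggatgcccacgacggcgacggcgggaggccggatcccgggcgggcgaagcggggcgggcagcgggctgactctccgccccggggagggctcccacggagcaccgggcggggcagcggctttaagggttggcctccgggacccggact
The core was searched on both strands of the 250 bases before each start and was in 28.1% of the 32851 promoters of the table, and of the members it was in windows of Igf2, Igfbp3 and Igfbp6, which lay within 1.5-fold in dermal cells, as well as of Igfbp2 and Igfbp5. The full site GACCACCCA was in 0.225% of promoters and in none of the 14 windows of the members, and the core is not in the Igfbp7 window. The Igfbp7 window is 74.0% G or C with 26 CpG pairs, against medians of 52.4% and 6 over the table, and the Igfbp5 window 58.8%. The letters of a window do not show whether a factor binds it.

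Igfbp7 had the largest ratio among the members, from a low base: 308 UMIs and 4.90 CPM in control and 1012 UMIs and 31.4 CPM in mutant dermal cells, a ratio of 6.42 (5.65 to 7.32). It was under the 10 CPM minimum in epidermal cells, at 1.38 and 5.38 CPM with a ratio of 3.89 (1.85 to 9.42), and in muscle cells, at 1.43 and 1.71 CPM. The dermal and epidermal log2 ratios of Igfbp7 differed by 0.72 (-0.36 to 1.80). Its 3′ end overlaps that of Polr2b on the other strand, and Polr2b had a dermal ratio of 1.12 (1.05 to 1.19). Igfbp4 (chr11:99041244-99054392, plus strand), which sequesters ligand until it is cleaved by PAPPA, stood at 418 and 543 CPM in dermal cells, a ratio of 1.30 (1.28 to 1.33). Igfbp3 (chr11:7206086-7213923, minus strand), the main carrier in adult blood, had ratios of 0.870 (0.826 to 0.916) in dermal and 1.04 (0.979 to 1.09) in muscle cells, where it was at 279 and 289 CPM. Igfbp6 (chr15:102144362-102149511, plus strand), which prefers IGF2, was at 11 and 14.3 CPM in dermal cells, a ratio of 1.30 (1.16 to 1.47). It had 0 UMIs in epidermal cells, which allows up to 0.518 CPM in the control and 0.269 CPM in the mutant library, and 0 UMIs in muscle cells, which allows up to 0.204 and 0.467 CPM.

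The make-up of the binder transcripts differed between the libraries. A 3′ UMI count does not grow with transcript length, though capture can differ between genes, so these are shares of UMIs. In control dermal cells Igfbp5 gave 42.7% and Igfbp4 36.7% of the UMIs of the 6 binders, and in mutant dermal cells Igfbp5 gave 13.9% and Igfbp4 65.4%. Summed binders were at 1138 CPM in control and 831 CPM in mutant dermal cells while summed ligands were at 643 and 866 CPM, so there were 1.77 binder UMIs per ligand UMI in the control and 0.959 in the mutant library. These dermal sums compare different mixtures of clusters, described below. In clusters 1, 12 and 14, which both libraries shared, Igfbp4 had ratios of 1.02, 1.09 and 0.985 and Igfbp5 of 0.775, 0.492 and 0.958. In clusters 2, 4 and 7, with fewer mutant cells, Igfbp4 had 1.29, 1.56 and 1.51. Binder shares were not computed by cluster. In epidermal cells Igfbp2 gave 70.6% of binder UMIs in the control and 34% in the mutant library, and Igfbp5 19.7% and 58.5%. Muscle cells kept close shares, with Igfbp5 at 38.2% and 36.6%, Igfbp2 at 31.7% and 31.8% and Igfbp3 at 26.1% and 27.1%.

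**Figure D2:**
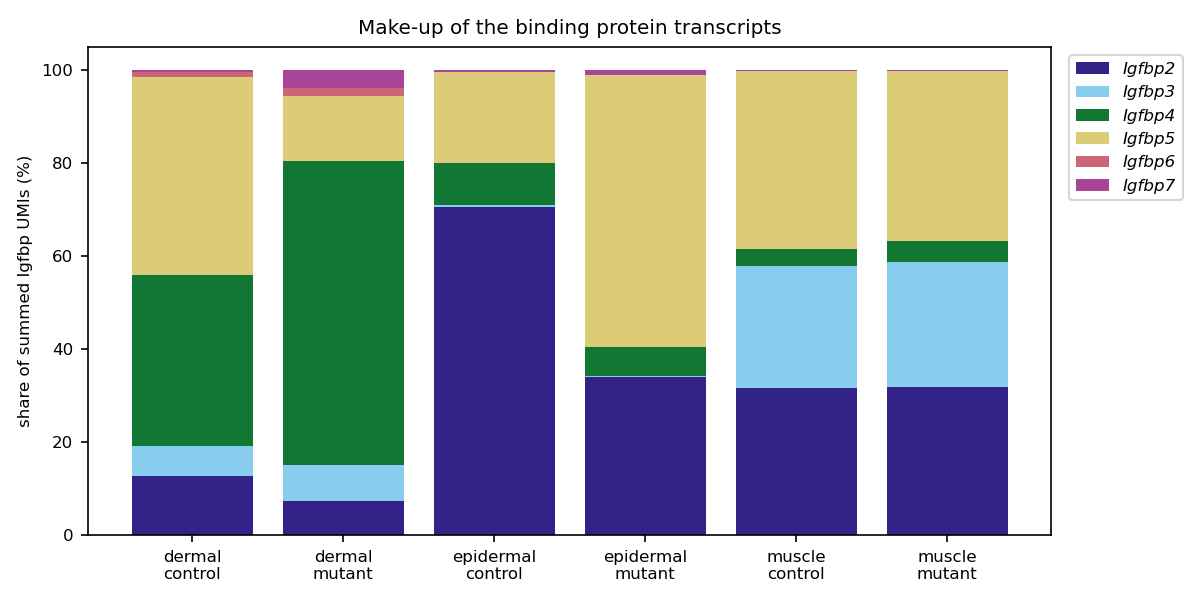
Share of the summed UMIs of 6 Igfbp genes that each contributes, in percent, for control and mutant library in dermal, epidermal and muscle cells. Igfbp4 takes 65.4% of the mutant dermal bar against 36.7% in the control, and Igfbp5 takes 58.5% of the mutant epidermal bar against 19.7%.

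To see whether the sums came from many cells, each cell was thinned to 3000 UMIs and cells with at least 1 UMI of a gene were counted. Igf1 was found in 25.6% (24.7 to 26.5) of control and 43.0% (41.6 to 44.4) of mutant dermal cells, with a mean of 1.95 and 1.99 UMIs in the cells that had any. Dermal cells with an Igfbp5 UMI made up 59.9% (58.8 to 60.9) and 19.2% (18.1 to 20.3), and those that had any held 2.45 and 2.05. At this depth most cells with a UMI hold few, so these values do not separate fewer cells with the transcript from a lower level per cell. In epidermal cells Igfbp5 was found in 25.2% (21.6 to 29.0) of control and 53.5% (50.8 to 56.2) of mutant cells, with means of 1.22 and 1.87 UMIs. Igfbp2 was found in 32.0% and 15.1% of dermal cells, and Igfbp7 in 1.71% and 6.85%. In muscle cells Igf1 was found in 14.0% (11.9 to 16.4) and 6.19% (4.51 to 8.24). Macrophages, which gave few Igfbp5 UMIs, had it in 1.15% and 1.88% of cells, and glial cells had Igf1 in 0.583% and 2.53%, at medians of 11096 and 8709 UMIs per macrophage and 7085 and 4724 per glial cell before thinning, against 6882 and 5874.5 per dermal cell.

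**Figure D3:**
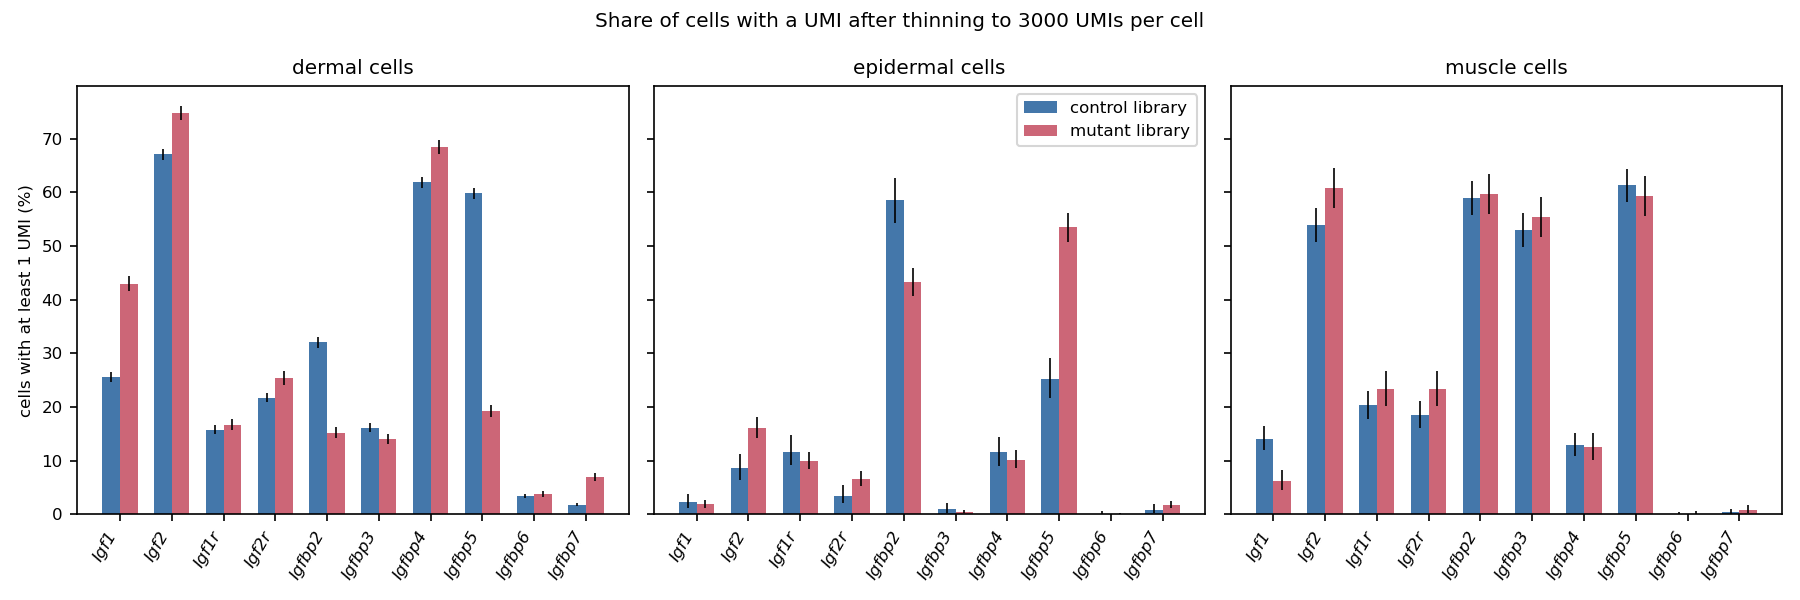
Percent of cells with at least 1 UMI of each member after thinning to 3000 UMIs per cell, with exact 95% intervals, for control and mutant library in 3 cell classes. Igfbp5 is found in 59.9% of control and 19.2% of mutant dermal cells and in 25.2% and 53.5% of epidermal cells.

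Within the dermis the 2 libraries occupied different clusters, so the class sums compare different mixtures of cells. Clusters 5, 8, 9 and 17, with Ptch1 or Hhip among their leading genes, held nearly only mutant cells (1293, 955, 922 and 465, with 6, 5, 2 and 1 control cells). Clusters 3 and 13 were nearly only control cells. The mutant clusters had Igfbp5 at 33.3 to 87.0 CPM, below every other dermal cluster of either library, the lowest of which was at 203 CPM. They also had Igfbp7 at 25.4 to 45.6 CPM, above every other dermal cluster, the highest of which was at 16.6 CPM. Igf1 in these 4 clusters was between 168 and 304 CPM. Among control clusters Igf1 ran from 3.80 CPM in cluster 3, the cluster richest in Crabp1, to 441 CPM in cluster 1, led by Col14a1. Crabp1 encodes a retinoic acid binding protein of the upper dermis.

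**Figure D4:**
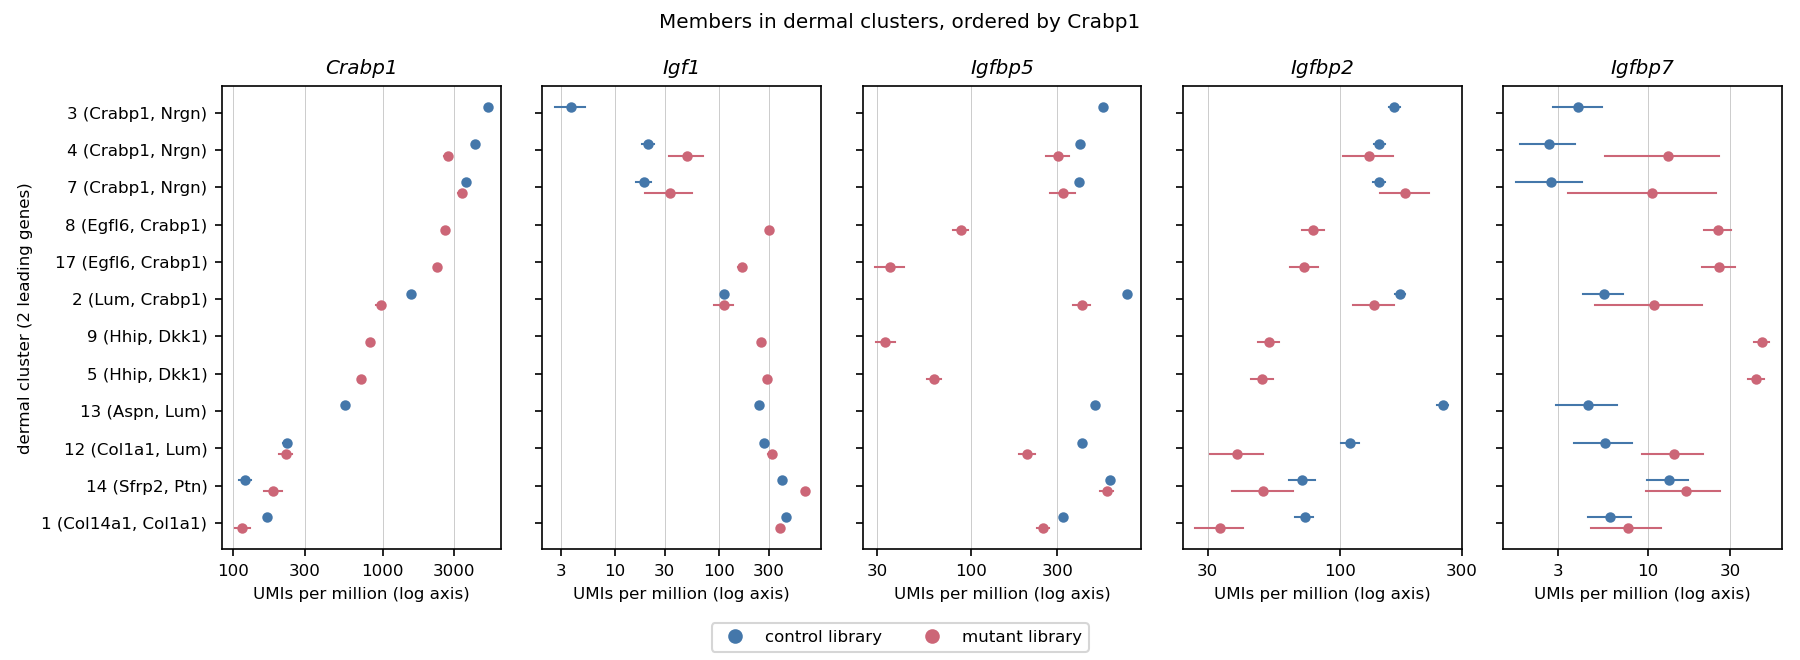
CPM of Crabp1, Igf1, Igfbp5, Igfbp2 and Igfbp7 on log axes in each dermal cluster with at least 50 cells of a library, with exact 95% intervals, ordered from most to least Crabp1. Igf1 in the control is lowest in cluster 3, the richest in Crabp1, at 3.80 CPM and highest in cluster 1 at 441 CPM, while the 4 clusters of nearly only mutant cells hold Igfbp5 at 33.3 to 87.0 CPM.

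In clusters 1, 12 and 14, where both libraries had at least 200 cells, 2 members were past 1.5-fold beside 4.55% of all measured genes, Igfbp2 lower at 0.469 (0.404 to 0.542) and Igfbp7 higher at 1.53 (1.12 to 2.07). By cluster, in that order, Igfbp2 had ratios of 0.465, 0.360 and 0.705. Igfbp7 had 1.28 (0.721 to 2.19), 2.52 (1.42 to 4.46) and 1.26 (0.694 to 2.18), so only cluster 12 was past 1.5-fold. In clusters 1, 12 and 14 together Igf1 had a ratio of 1.11 (1.06 to 1.16) and Igfbp5 of 0.720 (0.682 to 0.760). By cluster, in that order, Igf1 had ratios of 0.886, 1.2 and 1.67. The mutant level of Igf1 was thus below the control level in cluster 1 and above it in clusters 12 and 14, each beyond counting error. Igfbp2 lay within 1.5-fold in clusters 2, 4 and 7, at 0.791, 0.908 and 1.27, with 150, 86 and 75 mutant cells. Igfbp5 was at 322 and 250 CPM in cluster 1, 412 and 203 CPM in cluster 12, and 588 and 563 CPM in cluster 14. Without the clusters led by Col14a1 and Sfrp2, 6 members were past 1.5-fold beside 11% of all measured genes: Igf1 at 2.93 (2.82 to 3.05) and Igfbp5 at 0.172 (0.165 to 0.179) among them, with Igfbp4 at 1.53 and Igfbp6 at 2.30 joining. Both settings were chosen after the clusters were seen.

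Dermal cells were also split by transcripts that are no members. Dermal cells with a Crabp1 UMI had Igf1 at 87.3 CPM in the control and 248 CPM in the mutant library, a ratio of 2.84 (2.67 to 3.03). Cells without one had 371 and 363 CPM, a ratio of 0.979 (0.921 to 1.04). In cells with a UMI of Lef1, a nuclear effector of Wnt signalling that marks the upper dermis, Igf1 was at 33.1 and 327 CPM, a ratio of 9.88 (7.57 to 13.1). In cells without Lef1 the ratio was 1.58 (1.51 to 1.65). Control cells with Lef1 thus had less Igf1 than control cells without it, at a ratio of 0.187 (0.142 to 0.242), while in the mutant library that ratio was 1.17 (1.08 to 1.27). Igfbp5 was lower in the mutant library on both sides of each split, at 0.229 and 0.372 with and without Crabp1 and at 0.161 and 0.286 with and without Lef1.

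Dermal cells of the mutant library with a Ptch1 UMI (2021 of 4785) had Igfbp5 at 62.5 CPM and those without at 182 CPM, a ratio of 0.344 (0.307 to 0.386). The 384 mutant cells with an eYFP UMI had it at 59.9 CPM and the others at 137 CPM. In the control library, 122 cells with Ptch1 had Igfbp5 at 497 CPM and the others at 490 CPM, a ratio of 1.02 (0.872 to 1.18). Igf1 differed less between these mutant cells, at 300 and 275 CPM with and without Ptch1, a ratio of 1.09 (1.02 to 1.16). Igfbp2 was at 61.2 and 64.8 CPM, a ratio of 0.945 (0.826 to 1.08), and Igfbp7 at 33.2 and 23.9 CPM, a ratio of 1.39 (1.14 to 1.70). A cell without a Ptch1 UMI at this depth may still express the gene. Summed markers of the dermis itself were at 10027 CPM in control and 7103 CPM in mutant dermal cells, with 1 of 10 higher in the mutant library, and their part in the member values was not tested.

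In the epidermis Igfbp5 was higher in the mutant library in clusters 10 and 11 and on both sides of the splits that follow, which were chosen after the class totals were seen. The third epidermal cluster, 25, had 32 control cells, too few for a ratio, and its 86 mutant cells had Igfbp5 at 202 CPM. It was at 87.8 and 280 CPM in cluster 10, a ratio of 3.19 (2.81 to 3.62), and at 110 and 419 CPM in cluster 11, a ratio of 3.81 (3.33 to 4.36). On the 2 sides of Lef1, which marks placode-forming epidermis, the ratios were 3.47 (2.62 to 4.64) with and 3.34 (2.71 to 4.15) without a UMI. On those of Krt10, a keratin of suprabasal cells, they were 3.33 (2.16 to 5.38) and 3.23 (2.71 to 3.86). Cells with and without Krt10 had nearly the same Igfbp5 level within the mutant library, at 340 and 332 CPM. With doublets kept the epidermal ratio of Igfbp5 was 2.40. Dermal RNA in epidermal cells was low: collagen transcripts (Col1a1, Col1a2 and Col3a1) were at 1.15% of their dermal level in the control and 1.5% in the mutant library, and summed dermal markers at 108 and 97.4 CPM, with none of the 10 at 0. Epidermal Igfbp5 stood at 19.5% and 283% of the dermal level of the same library, so in the mutant library the epidermis was above the dermis. Epidermal Igf1 was at 4.51% and 2.65% of the dermal level and Igfbp3 at 2.78% and 1.93%, which is 3.93 and 1.77 times the collagen share for Igf1 and 2.42 and 1.29 times for Igfbp3.

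Muscle Igf1 was higher in cluster 6 than in cluster 18 in both libraries. Cluster 6 had 81.2 CPM in the control and 26.6 CPM in the mutant library, a ratio of 0.328 (0.270 to 0.395). Cluster 18, led by differentiation genes such as Myog, Mylpf and Mymx, had 6.22 and 4.04 CPM. Cells without a UMI of Myog, the transcription factor of muscle differentiation, had 88.7 and 35.3 CPM, and cells with one 26.4 and 7.36 CPM, at ratios of 0.398 (0.274 to 0.564) and 0.279 (0.103 to 0.656). Control muscle Igf1 was at 44.4% of the dermal level, against 6.87% for the collagens, while mutant muscle Igf1 was below the collagen share. A share at or below that of the collagens may be background. Mutant muscle Igf1 was not even over cells, at 26.6 CPM in cluster 6 and 4.04 CPM in cluster 18. Mutant mast and other blood cells had 0 Igf1 UMIs, where 3 UMIs would be 1.68 CPM. Collagen transcripts were at 0.777% of their dermal level there, against 9.57% in mutant muscle cells. The mast count therefore cannot gauge background in muscle cells. How much of the mutant muscle level is background was not tested. Igfbp4 in muscle cells was near the collagen share in both libraries, at 9.80% and 8.67%. Neuronal markers moved with Igf1 in the muscle class, with a sum of 347 CPM in control and 166 CPM in mutant cells, 0 of 8 higher in the mutant library and 1 at 0 there. Igf1 was lower on both sides of Isl1, the motor neuron and branchiomeric muscle gene of that list, at 0.280 (0.135 to 0.525) with and 0.386 (0.257 to 0.569) without a UMI.

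Across all named classes the members had distinct sites of highest level. Igf1 was highest in dermal cells of both libraries, followed in the control by macrophages at 114 CPM, and macrophage Igf1 was at 59.5 CPM in the mutant library, a ratio of 0.523 (0.438 to 0.623). Igf2 in endothelial cells was at 691 and 562 CPM. It was above the dermal level beyond counting error in the control, and not in the mutant library. Igfbp5 was highest in glial cells of both libraries, at 960 and 1271 CPM with 87.1% of the binder UMIs of control glial cells. Igfbp4 made up 98.2% of binder UMIs in control macrophages. Igfbp3 was highest in muscle and second in endothelial cells, at 176 and 159 CPM in the latter. Igf2r was highest in mural cells, the pericytes and smooth muscle around vessels, at 226 and 297 CPM. Igfbp7 was highest in endothelial cells at 197 and 111 CPM, a ratio of 0.561 (0.454 to 0.692). Mural cells had Igfbp7 at 53.9 and 97.8 CPM, a ratio of 1.82 (1.39 to 2.36), and the intervals of the 2 vessel classes overlapped in the mutant library. These vessel classes held 143 and 161 endothelial and 170 and 134 mural cells. Barcodes of the erythroid class carried the collagen transcripts at 45.4% and 46.5% of their dermal level. Igfbp5 was at 46.2% and 109% of the dermal level there, and Igfbp2 at 83.1% and 127%.

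**Figure D5:**
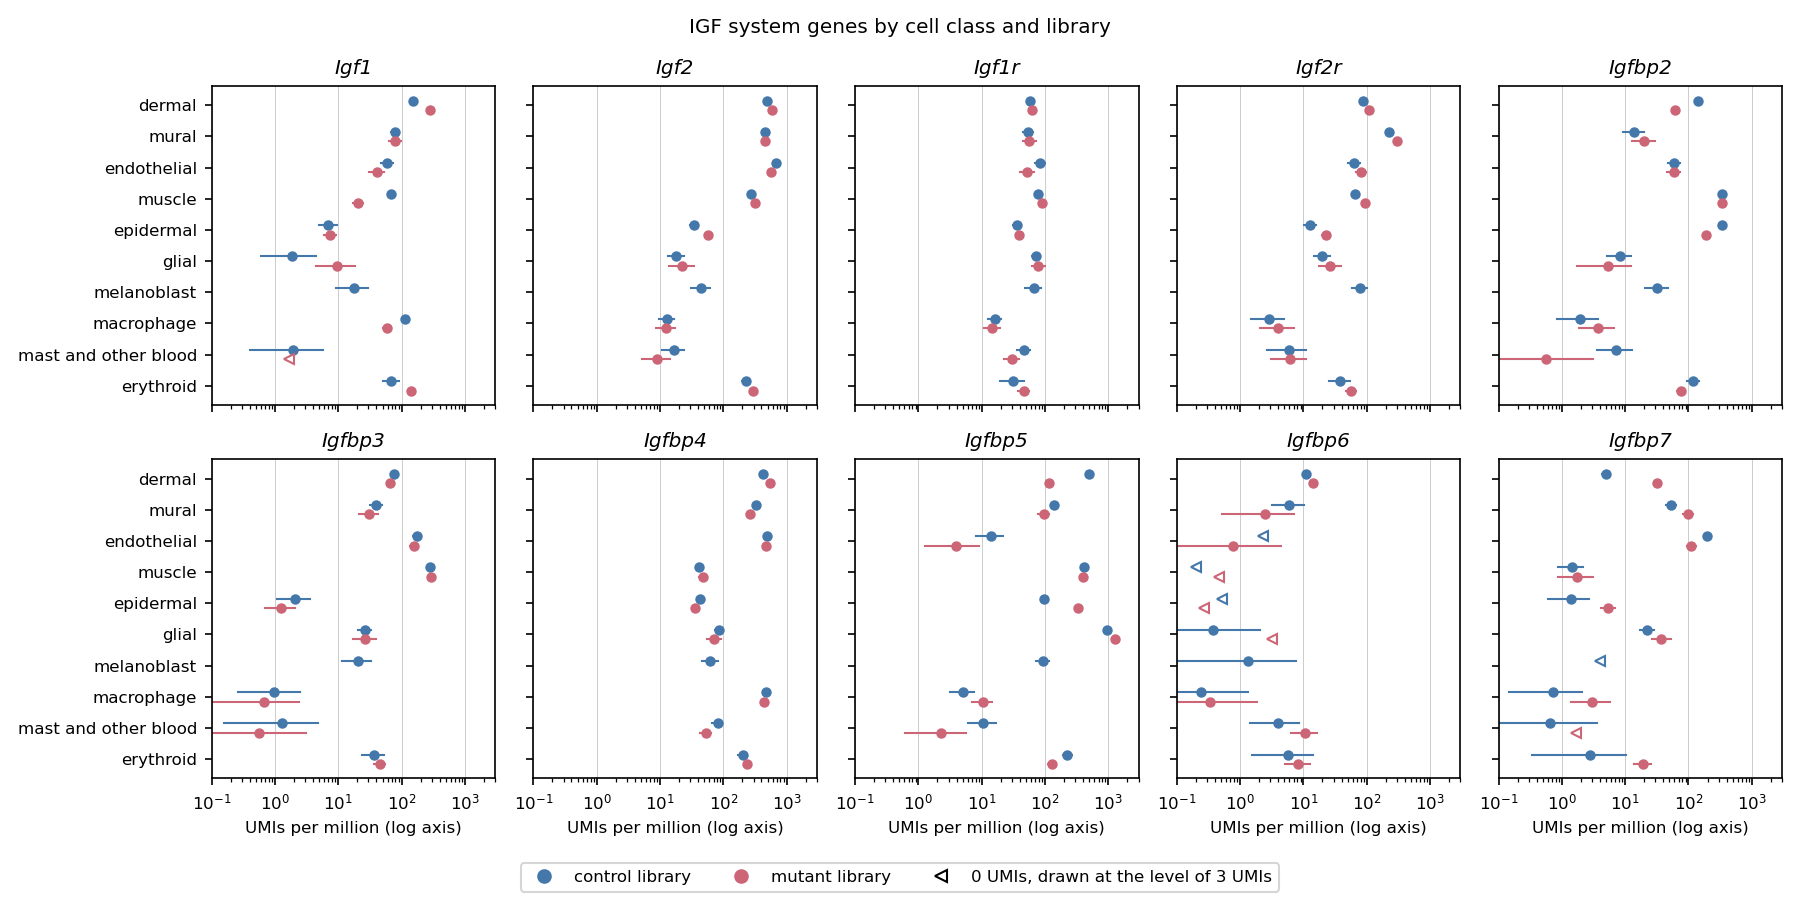
CPM of each member on a log axis in 10 cell classes of the control and mutant library, with exact 95% intervals, where open triangles stand for 0 UMIs drawn at the level of 3 UMIs and mutant melanoblasts, with under 50 cells, are left out. Igfbp5 peaks in glial cells at 960 and 1271 CPM, Igf2r in mural cells at 226 and 297 CPM and Igfbp7 in endothelial cells at 197 and 111 CPM.

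Of the other genes of the pathway in 5 lists, 4 of 33 measured in dermal cells were past 1.5-fold (12.1%, beside 9.27% of all genes), 5 of 21 in epidermal cells (23.8%, beside 6.69%) and 1 of 26 in muscle cells (3.85%, beside 3.44%). With 2 to 12 measured genes in a list, these shares rest on single genes and nothing particular to the lists is read from them. Of receptors and adaptors 2 of 8 measured in dermal cells were higher and none lower: Grb14, an adaptor that inhibits insulin receptor family kinases, and Gab1, a docking protein downstream of receptor kinases. Grb14 was at 0.906 CPM in control and 29.7 CPM in mutant dermal cells, a ratio of 32.8 (25.1 to 43.6). After thinning it was in 0.380% and 6.90% of dermal cells and in 3 of 548 and 1 of 1368 epidermal cells. Its level in clusters 5, 8, 9 and 17 was 25 to 46.8 CPM, against at most 4.62 CPM in any other dermal cluster, and in mutant cells with and without Ptch1 it was 35.0 and 18.7 CPM. Gab1 was at 17.7 and 33.3 CPM, a ratio of 1.88 (1.73 to 2.05). None of the 3 measured genes of that list was past 1.5-fold in epidermal or in muscle cells.

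The list counts that follow stand beside 9.27% of all measured genes past 1.5-fold in dermal, 6.69% in epidermal and 3.44% in muscle cells. Of the IGFBP proteases and carriers, 1 of 3 measured was lower in dermal cells, the secreted protease Htra1, at 20.4 and 9.78 CPM and a ratio of 0.480 (0.423 to 0.543). In epidermal cells 2 of 3 were higher: Htra1 at 12.1 and 18.5 CPM, a ratio of 1.53 (1.16 to 2.03), and Stc1, an inhibitor of PAPPA proteases, at 15.2 and 34.2 CPM, a ratio of 2.25 (1.78 to 2.87). Htra1 thus had the same pair of directions as Igfbp5, though its epidermal ratio was close to the limit and rests on 70 and 206 UMIs. After thinning, Htra1 was in 3.83% (2.39 to 5.80) of control and 4.82% (3.75 to 6.10) of mutant epidermal cells, with overlapping intervals. None of 3 was past 1.5-fold in muscle cells. Of the IGFBP-domain relatives, 0 of 4 in dermal and 0 of 2 in muscle cells were past 1.5-fold, and in epidermal cells 1 of 2 was, the matricellular gene Ccn2, at 18.0 and 2.42 CPM, a ratio of 0.135 (0.0848 to 0.207).

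Of the Igf2 locus and mRNA regulators, 0 of 6 in dermal cells, 1 of 5 in epidermal cells (H19) and 1 of 6 in muscle cells were past 1.5-fold. The muscle gene was Igf2os, antisense to Igf2, at 8.92 and 13.7 CPM, a ratio of 1.54 (1.16 to 2.03). Of 12 measured PI3K, AKT and FoxO genes in dermal cells, 1 was higher, the transcription factor gene Foxo1, at 7.15 and 11.2 CPM, a ratio of 1.56 (1.36 to 1.80). In epidermal cells 1 of 8 was higher, the PI3K regulatory subunit Pik3r1, at 35.6 and 63.5 CPM, a ratio of 1.79 (1.53 to 2.10). In muscle cells 0 of 12 were past 1.5-fold. The median log2 ratio of this list was -0.05 in dermal, 0.05 in epidermal and 0.06 in muscle cells, near the medians of all genes.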

How the data were processed

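The deposited matrices hold raw UMI counts per gene and barcode, made by the authors with Cell Ranger 5.0.1 on mm10, per the submitters' processing notes. All columns of per-sample values were used. Barcodes with at least 1000 genes and at most 10% mitochondrial UMIs were kept, and Scrublet doublets (593 control, 269 mutant) were left out. Cells of both libraries were clustered together in scanpy 1.11.5 (10000 counts per cell, 2000 variable genes without the IGF genes and lists, 30 components, 15 neighbours, Leiden resolution 1.0), which gave 28 clusters. These were named from 12 marker lists, with leading genes ranked against clusters of other classes, a reference chosen after the clusters were seen. UMIs were summed per class and library and scaled to 1000000 (CPM), with exact Poisson, conditional binomial (ratios) and Clopper-Pearson (shares) 95% intervals. Beside 0 UMIs stands the level of 3 UMIs. List medians use 1 CPM added.

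The members and lists were chosen with earlier results of these data known. All 10 members are named, and of each pathway list up to 4 genes past 1.5-fold per class. Genes matched GENCODE M21 for 32158 of 32286 features. The ratio code was checked on simulated counts. Alternatives were other filters, scalings, clusterings, depths and subsets of cells. Melanoblasts of the mutant library (under 50 cells) have no level.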

Additional observations from a re-analysis of the deposited data

Results flagged for a closer look

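Several members had ratios, mutant over control, past 1.5-fold in opposite directions in different cell classes. The differences were described with counting intervals and not tested, since each group has 1 library. Igf1 had a ratio of 0.302 in muscle and 0.523 in macrophage cells, against 1.81 in dermal and 2.01 in erythroid cells. Igfbp5 had ratios of 3.46 in epidermal and 2.07 in macrophage cells, against 0.238 in dermal, 0.284 in endothelial, 0.214 in mast and other blood and 0.565 in erythroid cells. The mutant muscle level of Igf1 was below the share of the dermal level that collagen transcripts had (0.775 times it). The control macrophage level of Igfbp5 was also below the collagen share (0.642 times), and the control endothelial and mast levels were near it (1.26 and 1.14 times). Such levels may hold background, and how much of them is background was not tested. The macrophage, endothelial and mast values of Igfbp5 rest on 21 and 31, 18 and 5, and 16 and 4 UMIs. Igfbp7 had a ratio of 0.561 in endothelial cells, against 1.82 in mural, 1.69 in glial, 6.81 in erythroid (2 and 46 UMIs) and 6.42 in dermal cells. Erythroid barcodes carried collagen transcripts at 45.4% and 46.5% of their dermal level. Against that share, erythroid Igf1 was at 0.990 and 1.08 times, Igfbp7 at 1.26 and 1.31 times and Igfbp5 at 1.02 and 2.35 times, control and mutant. The part of dermal RNA in the erythroid ratios was not tested. Igf2 had a ratio of 1.66 in epidermal cells and 0.548 in mast and other blood cells, the latter from 25 and 16 UMIs with an interval of 0.273 to 1.07.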

How the results depend on the processing

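No paired analysis was possible because each group has 1 library, and for the same reason no replicate could be left out. Of 560 ratios and shares under alternatives, 381 moved by less than their counting interval, 178 moved by more and 1 turned round: Igf1 in dermal cells without a Crabp1 UMI, at 0.979. The counting interval of that ratio, given above, covers 1, so it is not a reversal beyond counting error. The count of dermal members past 1.5-fold was 4 and ran from 2, in clusters with at least 200 cells of each library, to 6, without the clusters led by Col14a1 and Sfrp2. It was 4 in epidermal cells and ran from 1 at a 2-fold limit (Igfbp5, beside 2.52% of all genes) to 6 with no CPM minimum, with Igfbp3 lower and Igfbp7 higher added (beside 19.2% of all genes). In muscle cells it was 1 and became 2 in cells with no markers of the other 2 classes and in cluster 6 alone, with Igf2r added (beside 4.27% and 3.29% of all genes), and 0 in cluster 18 alone (beside 10.9%). Over the alternatives the dermal ratio ran from 0.979 to 2.93 for Igf1, 0.172 to 0.720 for Igfbp5, 0.342 to 0.469 for Igfbp2 and 1.53 to 8.46 for Igfbp7. Single dermal clusters were not among the alternatives, and some lay outside these ranges. Igf1 was at 0.886 in cluster 1. Igfbp2 was at 0.465 in cluster 1 and 0.705 in cluster 14, but at 0.791, 0.908 and 1.27 in clusters 2, 4 and 7. Igfbp5 was at 0.560 and 0.492 in clusters 2 and 12, but at 0.775, 0.751, 0.809 and 0.958 in clusters 1, 4, 7 and 14. Igfbp7 was at 1.28 and 1.26 in clusters 1 and 14. The falls of Igfbp2 and Igfbp5 were thus not even over the dermal clusters. The epidermal ratio of Igfbp5 ran from 2.40, with doublets kept, to 3.81, and the muscle ratio of Igf1 from 0.265 to 0.650. Low counts limit Igfbp7 in epidermal and muscle cells, and Igfbp6 outside the dermis.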

Other observations

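The genes whose levels over the named classes of both libraries were most like those of the members past 1.5-fold in dermal cells were found by Pearson's r of log2(CPM + 5) over 19 points (10 classes, 9013 genes compared). The points share libraries and class sums, so r is a description. For Igf1 they were Man2a1 (0.85), Cacna1a (0.84) and Mdfic (0.82). For Igfbp2 they were Rflnb (0.91), Bex1 (0.87) and Mtx2 (0.86). For Igfbp5 they were Slc22a17 (0.93), Vcan (0.93) and Gprasp2 (0.93). For Igfbp7 they were Gng11 (0.93), Uaca (0.91) and Tcim (0.90).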
